A study of Homo sapiens with 12 samples.

Results

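The genes described here mark the absorptive cell of the intestine, the enterocyte, or serve the lipoproteins that it secretes. They were chosen by symbol, without use of their measured values: APOA1, APOB, A1CF, DPP4, VIL1, CDX2, HNF4A, FABP2, ALPI and SI. Of these 10 genes, 5 had a probe under their symbol in the gene table used to name the array's probes. These were APOA1, APOB, DPP4 and CDX2 with 1 probe each and A1CF with 2. VIL1, which encodes the microvillar actin-bundling protein villin, HNF4A, a nuclear receptor of gut and liver, FABP2, the intestinal fatty acid binding protein, ALPI, intestinal alkaline phosphatase, and SI, sucrase-isomaltase, had no probe under their symbol and were not measured here. The 6 member probes stand among 47231 on the array.

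The study addressed the role of ZNF658, a zinc finger protein that binds the zinc transcriptional regulatory element (ZTRE), by lowering its mRNA in cells labelled Caco-2, a human colonic adenocarcinoma line. RNA from 12 samples was hybridized to Illumina HT12 bead chip arrays, in 4 groups of 3 arrays. ZNF658 siRNA 1 and control siRNA 1 were Ambion oligonucleotides, and ZNF658 siRNA 2 and control siRNA 2 were Dharmacon oligonucleotides, siRNA 2 being a pool. These suppliers are those of the sample labels, whereas the study's supplement names the Dharmacon control alone, so that each difference between suppliers or between controls rests on the labels. All 4 groups received the same transfection reagent, Lipofectamine RNAiMAX, and there was no untransfected group. Separate cultures are not stated for the 3 arrays of a group, so that P values measure the spread between arrays. ZNF658 itself had no probe under its symbol, and its knockdown was not checked here.

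Enterocytes digest peptides and sugars with enzymes anchored in the brush border, and they package absorbed fat into chylomicrons, particles built on apolipoprotein B. Before secretion, the mRNA of APOB is edited in the intestine by a cytidine deaminase that works with an RNA-binding partner, A1CF, which yields the short form of the protein. CDX2 is the homeobox factor that sets intestinal identity, and it activates many brush border genes. Caco-2 cells are used as a model of the enterocyte because they acquire brush border enzymes and secrete lipoproteins when grown past confluence.

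RefSeq promoters (GRCh38.p14, 250 bases before to 50 after the gene's start) were at hand for 3 of the 5 measured genes, A1CF, DPP4 and CDX2. Those of DPP4, the only member called in the fit over 12 arrays, and of CDX2, the regulator among the members, are shown 5′ to 3′. DPP4 lies at chr2:162074166-162074465 and CDX2 at chr13:27969266-27969565, both on the minus strand. Capitals mark the GC box GGGCGG, which is the binding motif of SP1-type factors, and the CDX core TTTAT, each searched on both strands.
DPP4: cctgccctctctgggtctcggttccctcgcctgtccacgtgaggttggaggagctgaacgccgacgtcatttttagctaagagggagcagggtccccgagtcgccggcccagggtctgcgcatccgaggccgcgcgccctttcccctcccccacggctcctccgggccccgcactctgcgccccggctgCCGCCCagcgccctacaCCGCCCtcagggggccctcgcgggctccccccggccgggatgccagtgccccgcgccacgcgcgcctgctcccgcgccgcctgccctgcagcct
CDX2: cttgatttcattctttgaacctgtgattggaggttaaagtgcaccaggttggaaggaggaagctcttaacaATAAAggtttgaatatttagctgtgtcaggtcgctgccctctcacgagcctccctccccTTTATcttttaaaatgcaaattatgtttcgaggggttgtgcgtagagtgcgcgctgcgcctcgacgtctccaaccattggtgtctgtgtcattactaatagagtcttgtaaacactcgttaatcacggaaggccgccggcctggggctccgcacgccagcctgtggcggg
The DPP4 promoter had a GC content of 75%. It held 2 GC boxes, both on the opposite strand (read here as CCGCCC), with their first printed bases at −61 and −44 from the gene's start, and no TTTAT. The CDX2 promoter had a GC content of 50.3% and held 2 copies of TTTAT, at −179 on the opposite strand and at −120, and no GC box. The A1CF promoter held 3 copies of TTTAT. Of all 35116 promoters of 300 bases, 45% held the GC box and 34.9% held TTTAT. The ZTRE was searched in a stricter form than the study's, with up to 50 bases between its palindromic arms. Its second arm was the full reverse complement of the first, which has an additional G compared with the study's second arm. None of the 3 promoters held this stricter form, against 9.53% of all promoters. In the study's own form the CDX2 sequence above does hold a match, ccctccc followed by agagtg. The share of all promoters with that form was not counted. These matches describe the letters only.

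A probe was scored as detected on an array at a detection P value under 0.01, the share of negative control probes at least as bright. The arrays had 14454 to 16167 detected probes each. APOA1, DPP4 and CDX2 were detected on 12 of 12 arrays, with a detection P value of 0 on each. APOB was detected on 9 of 12 arrays, the first A1CF probe on 8 and the second on 1. At a limit of 0.05 these became 11, 12 and 7 arrays. The gene table names only probes that were detected on at least 1 array, so that each of the 6 probes had to be detected somewhere. Whether each missing symbol lies on an undetected or an unnamed probe cannot be told apart.

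The label Caco-2 was set against marker genes of several cell types. Of 10 enterocyte markers, which are the genes described here, 5 had a named probe, and 3 of these 5 were detected on every array. Of 5 further markers of intestinal epithelium, EPCAM and the intestinal cadherin CDH17 were detected on all 12 arrays and GPA33 on 1, and KRT20 and LGALS4 had no named probe. All 8 trophoblast markers had a named probe and were detected on all 12 arrays. They were the hormone subunits CGA and CGB5, the enzymes CYP19A1 and HSD3B1, the transcription factors GCM1, TFAP2C and GATA3, and the keratin KRT7. All 5 hepatocyte markers, ALB, AFP, TTR, SERPINA1 and FGB, were detected on all 12 arrays too. Of 5 fibroblast markers, COL1A1 and COL1A2 were detected on 12 arrays and LUM on 2. No squamous marker of 4 had a named probe. Of 4 markers of secretory intestinal cells, MUC2 was detected on 1 array and LYZ on 2. RNAs used here as markers of trophoblast and hepatocytes were thus measured beside those used as intestinal markers, in cells labelled Caco-2. So were the fibroblast markers COL1A1 and COL1A2. Whether the detected members, CDX2 and APOA1 among them, mark enterocytes alone was not tested, so that their detection does not settle the cell type. Whether 1 kind of cell held all of these RNAs or several kinds were mixed cannot be told apart in such bulk samples, nor can fewer cells of a type and less RNA per cell.

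**Figure D1:**
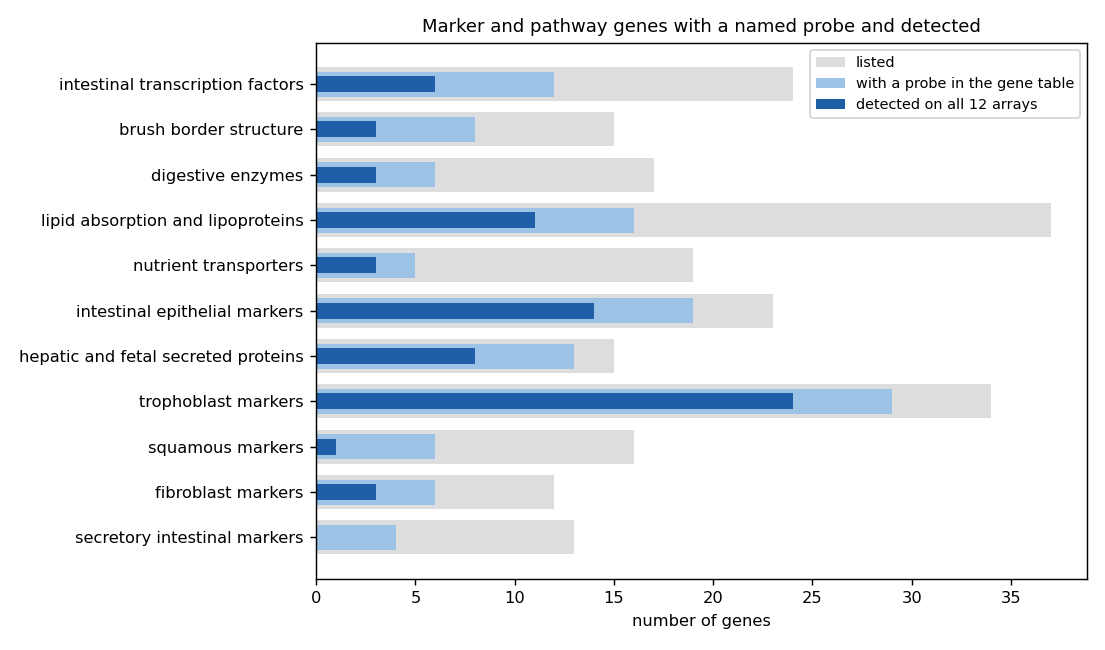
Number of genes in each marker or pathway list (grey), of those with a probe in the gene table (light blue) and of those detected on all 12 arrays (dark blue). Of 34 trophoblast genes, 29 had a named probe and 24 were detected on every array. For intestinal epithelial markers these numbers were 23, 19 and 14. For digestive enzymes they were 17, 6 and 3, and for lipid absorption and lipoproteins 37, 16 and 11. The lists thus differed in the share of genes with a named probe.

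Values given below are log2 intensities after background correction and quantile normalization. A difference was called where the P value of 1 limma fit over the 12 arrays, adjusted by Benjamini-Hochberg over all 14804 tested probes, was under 0.05 and the change was 1.2-fold or more. Probes were tested if detected on all 3 arrays of at least 1 group, which 5 of the 6 member probes were. APOB passed the filter through both control groups and A1CF through the ZNF658 siRNA 1 group alone, and 1 group was enough for the filter. For replicate 3 of each Dharmacon group, the most correlated array was of the other Dharmacon group. These were control siRNA 2 replicate 1 for ZNF658 siRNA 2 replicate 3, and ZNF658 siRNA 2 replicate 2 for control siRNA 2 replicate 3. The Ambion pair showed the same for ZNF658 siRNA 1 replicate 3 and control siRNA 1 replicate 1, each closest to the other (0.99054). A closest array of the other group was thus not limited to the Dharmacon arrays. The correlation was 0.98928 for ZNF658 siRNA 2 replicate 3. For control siRNA 2 replicate 3 it was 0.97278, the lowest such value of all 12 arrays. A fit was also made without replicate 3 of either Dharmacon group. Its siRNA 2 effects were −0.53 for APOA1, −1.1 for APOB, −0.77 for A1CF, −0.55 for DPP4 and 0.46 for CDX2. Their limma adjusted P values were 0.182, 0.0616, 0.124, 0.151 and 0.287. The DPP4 difference between suppliers was −1.09 in that fit (adjusted P value 8.13e-05).

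CDX2 was among the clearly detected members and did not separate the groups. Its log2 values with ZNF658 siRNA 1 were 10.05, 10.26 and 9.49 in replicates 1 to 3, and with control siRNA 1 they were 9.49, 9.72 and 9.84. With ZNF658 siRNA 2 they were 9.70, 10.27 and 9.62, and with control siRNA 2 they were 9.34, 9.71 and 10.86. The groups overlapped, and replicate 3 of control siRNA 2 was the highest array of all 12 while replicate 1 of the same group was the lowest. The difference between ZNF658 siRNA 1 and its control was 0.25 ± 0.32 (SE, n = 3 arrays per group), with a limma adjusted P value of 0.866. For ZNF658 siRNA 2 it was −0.11 ± 0.32, with an adjusted P value of 0.999, and the 95% interval ran from −0.79 to 0.56. The sign of the latter turned without control siRNA 2 replicate 3 (0.33) and without ZNF658 siRNA 2 replicate 3 (0.01).

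A1CF, the partner of the APOB editing enzyme, was near the detection limit. The first probe was detected on 3 arrays of ZNF658 siRNA 1, at log2 values of 5.89, 5.87 and 6.11, and on 1 array of control siRNA 1, whose values were 5.75, 5.66 and 5.66. These 2 groups did not overlap, but the 2 undetected control arrays missed the limit narrowly, with detection P values of 0.0104 and 0.013. A1CF entered the test only through the ZNF658 siRNA 1 group, so that nothing is read from its higher values there. With ZNF658 siRNA 2 the values were 5.97, 5.51 and 6.30, and with control siRNA 2 they were 6.32, 6.70 and 5.68, each group having 2 detected arrays. The differences from the matching controls had opposite signs, 0.27 ± 0.27 for siRNA 1 and −0.31 ± 0.27 for siRNA 2, and limma adjusted P values of 0.833 and 0.958. The second A1CF probe, detected only on control siRNA 2 replicate 1, lay between 4.87 and 5.95 and was not tested.

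APOB, the structural protein of chylomicrons, was lower on average with each ZNF658 siRNA than with its control, but was not called. With ZNF658 siRNA 1 its log2 values were 6.36, 6.11 and 5.61, and with control siRNA 1 they were 6.31, 6.27 and 6.51. With ZNF658 siRNA 2 they were 5.74, 5.07 and 5.98, and with control siRNA 2 they were 6.51, 6.49 and 6.00. The siRNA 1 group overlapped its control, and the siRNA 2 group lay just below its control. All 6 control arrays were scored as detected, as were 2 arrays with siRNA 1 and 1 with siRNA 2. The difference was −0.34 ± 0.27 for siRNA 1 (limma adjusted P value 0.792). For siRNA 2 it was −0.74 ± 0.27, with an unadjusted P value of 0.0162 and an adjusted P value of 0.836. The mean of both effects was −0.54 ± 0.19, with an adjusted P value of 0.998. APOB entered the test only through the control groups, where it was high, so that nothing is read from its lower values with the siRNAs.

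APOA1, the main protein of high-density lipoprotein, was clearly detected in every group. Its log2 values were 10.14, 9.99 and 10.70 with ZNF658 siRNA 1 and 10.61, 10.37 and 10.43 with control siRNA 1. They were 10.04, 9.46 and 10.39 with ZNF658 siRNA 2 and 10.31, 10.24 and 9.55 with control siRNA 2. All groups overlapped except that control siRNA 1 lay above control siRNA 2. The differences were −0.19 ± 0.25 for siRNA 1 and −0.07 ± 0.25 for siRNA 2, with limma adjusted P values of 0.873 and 0.999. The siRNA 2 value turned to 0.18 without ZNF658 siRNA 2 replicate 2, to 0.06 without control siRNA 2 replicate 1 and to 0.03 without control siRNA 2 replicate 2. The 3 arrays lowest in APOA1, which were ZNF658 siRNA 2 replicate 2, control siRNA 2 replicate 3 and ZNF658 siRNA 1 replicate 2, were the 3 arrays highest in CDX2. These arrays belong to 3 different groups.

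**Figure D2:**
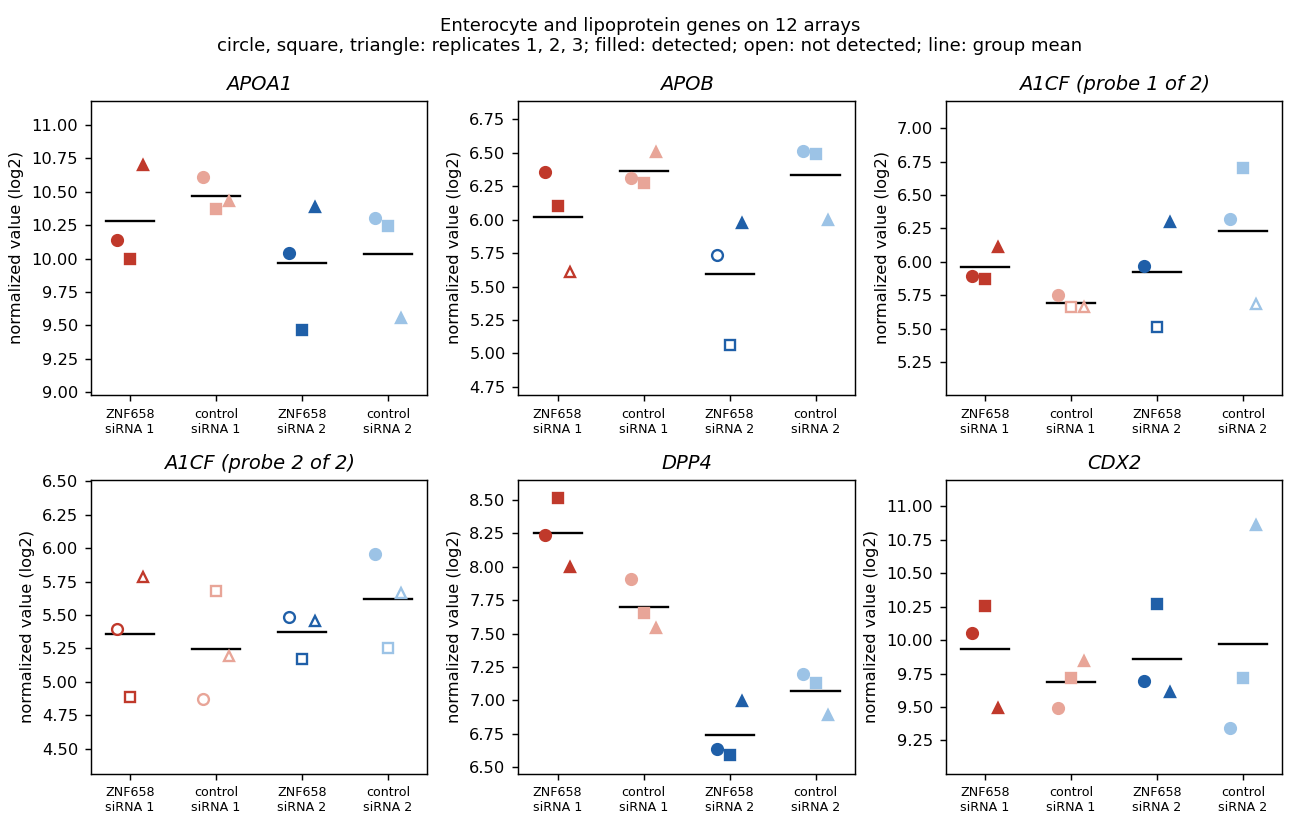
Normalized log2 value of each member probe by group, 1 point per array (circle, square and triangle for replicates 1, 2 and 3), filled where the probe was detected, with a line at the mean of 3 arrays. Every panel spans the same log2 range. DPP4 separated the arrays by supplier, 7.54 to 8.51 against 6.59 to 7.20, and the other panels show overlapping suppliers.

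DPP4, a dipeptidyl peptidase of the brush border that trims peptides and incretin hormones, was the member that differed between groups. Its log2 values were 8.24, 8.51 and 8.00 with ZNF658 siRNA 1 and 7.91, 7.65 and 7.54 with control siRNA 1. They were 6.63, 6.59 and 6.99 with ZNF658 siRNA 2 and 7.20, 7.13 and 6.89 with control siRNA 2. Every Ambion array was above every Dharmacon array, with medians of 7.95 and 6.94 over 6 arrays each. Over the 4 groups the limma F test gave an adjusted P value of 0.00151, and no other member passed (APOB next, at 0.335). That test called 2.14% of all tested probes.

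The supplier difference, the mean of the Dharmacon groups minus that of the Ambion groups, was −1.07 ± 0.14 for DPP4, or 2.1-fold lower with Dharmacon oligonucleotides, with a 95% interval of −1.37 to −0.77 and a limma adjusted P value of 0.000253. DPP4 was the 1 of 5 member probes called, against 4.6% of all tested probes (2.76% lower and 1.84% higher). Because 1 of 5 rests on a single gene, nothing is read from that share about the members. In the 6 arrays with ZNF658 siRNA alone the difference was −1.51 ± 0.20 (adjusted P value 0.000732), and in the 6 control arrays it was −0.63 ± 0.20 and not called (adjusted P value 0.139). No member was called between the 2 controls, against 2.03% of all tested probes (1.53% lower and 0.5% higher in control siRNA 2). DPP4 was the 1 member with an unadjusted P value under 0.05 there, at 0.00681. With array quality weights 2 members were called between the controls, DPP4 (−0.518, adjusted P value 0.0288) and A1CF (0.828, adjusted P value 0.0105). The size on the log2 scale was smaller without background correction, at −0.65, and in the authors' normalized values, at −0.52, and the call was the same in both. The 4 other members gave supplier differences of −0.37 ± 0.18 for APOA1, −0.23 ± 0.19 for APOB, 0.26 ± 0.19 for A1CF and 0.11 ± 0.22 for CDX2, with limma adjusted P values from 0.309 to 0.869.

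Neither ZNF658 siRNA gave a called member. With siRNA 1, limma called 0 of 5 member probes, against 0.0135% of all tested probes, and with siRNA 2 it called 0 of 5, against 0%. At an unadjusted P value under 0.05 there was 1 member for each siRNA, DPP4 with siRNA 1 and APOB with siRNA 2, when 1068 and 841 of all 14804 probes passed the same limit. No member was called for the mean of both siRNAs either, against 0.00675% of all tested probes. DPP4 was 0.55 ± 0.20 higher with siRNA 1 than with its control in the fit, and the arrays of the 2 groups did not overlap, but the adjusted P value was 0.684. With siRNA 2 it was −0.33 ± 0.20 (adjusted P value 0.921). The difference between these effects was 0.885 ± 0.282, with an unadjusted P value of 0.00683 and an adjusted P value of 0.306, and 0% of all tested probes were called in that comparison. With arrays weighted by their quality, the DPP4 change with siRNA 1 was 0.62 and was called (adjusted P value 0.0287), as was the difference between the effects (1.075, adjusted P value 0.00429). The precision rests on 3 arrays per group, and the upper ends of the 95% intervals for siRNA 1 ran from 0.24 log2 (APOB) to 0.98 log2 (DPP4).

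**Figure D3:**
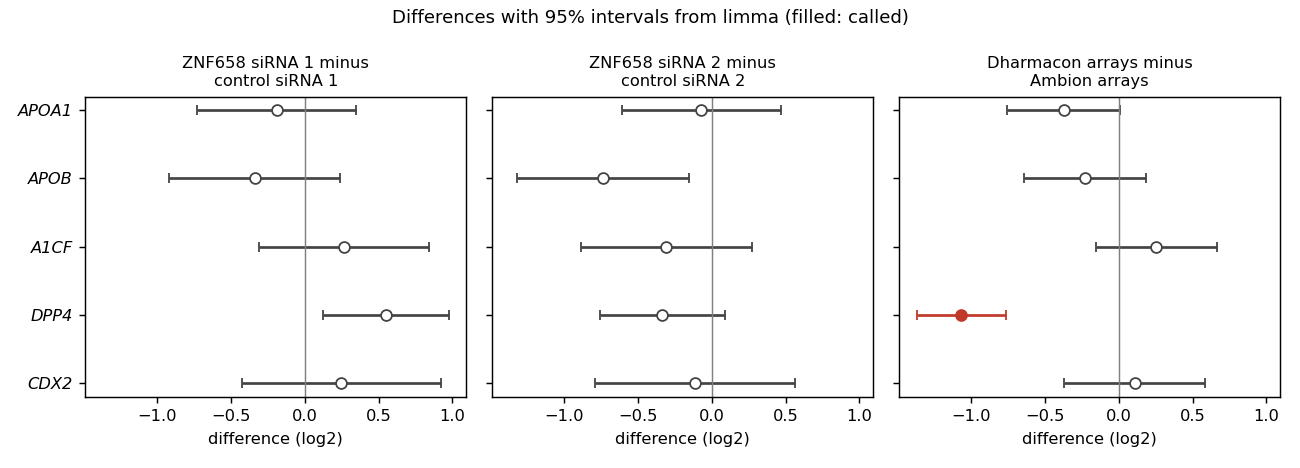
Log2 difference of each tested member probe in 3 comparisons, with its 95% interval from limma (3 arrays per group, 6 per supplier). A filled point marks a called difference, which was DPP4 between suppliers, at −1.07. No other point was called. APOB was tested only because its control groups were detected, and A1CF only because its ZNF658 siRNA 1 group was.

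Other enterocyte enzymes were taken from a list of 17, of which 6 had a named probe and 3 were tested. In the supplier difference 2 of the 3 were called lower in the Dharmacon arrays, against 2.76% of all tested probes. These were DPP4 itself, already called among the members, and MME, which encodes the membrane peptidase neprilysin. Because the list thus adds MME alone, nothing is read from that share about enterocyte enzymes. Log2 values of MME were 8.23, 8.07 and 8.10 with ZNF658 siRNA 1, 7.92, 8.02 and 8.03 with control siRNA 1, 6.50, 6.17 and 6.48 with ZNF658 siRNA 2, and 6.83, 6.85 and 6.50 with control siRNA 2. The suppliers did not overlap, and the difference was −1.50 ± 0.13, or 2.83-fold, with a limma adjusted P value of 2.97e-06. Between the controls alone MME was called too, at −1.26 (adjusted P value 0.00109). ENPEP, the aminopeptidase that cleaves acidic residues from angiotensin, lay at 11.56 to 12.01 in Ambion and 11.94 to 12.22 in Dharmacon arrays, overlapping, and was not called (0.34 ± 0.10, adjusted P value 0.0591). Neprilysin is also a peptidase of kidney and placenta, and DPP4 is made by many epithelia and by T cells.

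**Figure D4:**
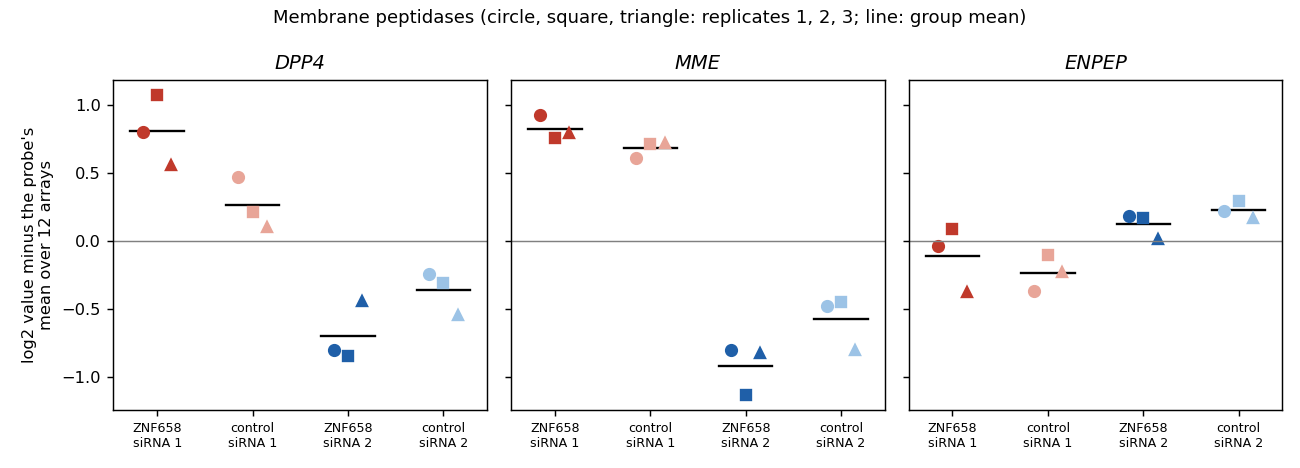
Log2 value of DPP4, MME and ENPEP on each array minus the mean of that probe over the 12 arrays (circle, square and triangle for replicates 1, 2 and 3, line at the group mean). DPP4 and MME were lower on all 6 Dharmacon arrays than on all 6 Ambion arrays, and ENPEP overlapped.

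Genes of lipid absorption and lipoproteins numbered 37, of which 16 had a named probe and 14 were tested. None was called in any comparison by limma. Of all tested probes 4.6% were called between suppliers, 0.0135% with siRNA 1 and 0% with siRNA 2. Nothing is read from the lack of calls in this list. In the supplier difference 4 were above 0 and 10 below, with a median of −0.11, against 0.00 over all tested probes. With siRNA 1 the list had a median of −0.12 (5 above and 9 below 0), and with siRNA 2 of −0.05 (6 above and 8 below). APOC3, an inhibitor of lipoprotein lipase, had the lowest adjusted P value of the list between suppliers, at 0.0824, with 6.89 to 8.00 in Ambion and 6.06 to 7.27 in Dharmacon arrays and a difference of −0.75 ± 0.23. APOA2, the second protein of high-density lipoprotein, gave −0.36 ± 0.18 and APOE, the ligand of lipoprotein remnant receptors, 0.50 ± 0.26, with adjusted P values of 0.339 and 0.346. LRP2, the endocytic receptor megalin, was detected on all 12 arrays, as was SYNCRIP, an RNA-binding protein of the APOB editing complex, and neither was called (adjusted P values of 0.219 and 0.644). APOC3 was picked for its P value after the values were seen.

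For the lists in this paragraph, 2.76% of all tested probes were called lower and 1.84% higher between suppliers, and 2.03% were called between the controls. Among 24 intestinal transcription factors, 12 had a named probe and 7 were tested. CDX1, the homologue of CDX2, lay at 10.65 to 10.99 in Ambion and 11.07 to 11.54 in Dharmacon arrays, without overlap. It was called higher in the latter, by 0.43 ± 0.11 (limma adjusted P value 0.031), while CDX2 was not called. KLF4, a factor of epithelial differentiation, was called lower, by −0.98 ± 0.18 (adjusted P value 0.00437), with values of 8.73 to 9.82 in Ambion and 7.93 to 8.74 in Dharmacon arrays that met at their ends. FOXA1, KLF5, ELF3 and GATA6 were not called. Of 15 genes of brush border structure 4 were tested and 1 was called: PLS1, an actin bundler of the microvillus core, lay at 6.93 to 7.93 in Ambion and at 7.96 to 8.40 in Dharmacon arrays and was called higher in the latter (0.75 ± 0.14, adjusted P value 0.00416) and was called between the controls as well (0.98, adjusted P value 0.0142). Ezrin (EZR), the linker of microvillar actin to the membrane, was among the brightest and was not called. Of 19 nutrient transporters 3 were tested, and SLC40A1, the iron exporter ferroportin, was called lower in Dharmacon arrays, by −0.76 ± 0.12 (adjusted P value 0.00133). No gene of any of the lists was called for siRNA 1 or for siRNA 2, against 0.0135% and 0% of all tested probes.

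Part of the markers of other cell types also differed between suppliers, and their part in the DPP4 result was not tested. Of 34 trophoblast markers 27 were tested. In Dharmacon arrays 15 were called lower and 2 higher, against 2.76% and 1.84% of all tested probes. The median was −0.69 (−0.64 with 2 genes that no Dharmacon array detected, CGB7 and ENDOU, at their limits). These 2 genes are among the 15 and passed the detection filter only through Ambion groups, where they were high. Nothing is read from their calls. KISS1, 1 of the 2 called higher, was detected on 6 of 12 arrays. Its values were 4.68 to 5.72 in Ambion and 5.77 to 6.87 in Dharmacon arrays. KISS1 passed the filter only through Dharmacon arrays, where it was high, so that nothing is read from its call either. The list was chosen with earlier results of these data known, so that its counts are given as a description. The mean of the list ranged from 9.99 to 10.18 over the Ambion arrays and from 9.12 to 9.49 over the Dharmacon arrays. CGA, the common subunit of the glycoprotein hormones, lay at 10.92 to 12.00 and 8.63 to 10.05, with a difference of −2.08 ± 0.23 (limma adjusted P value 4.83e-05). Among 10 tested hepatic and fetal secreted proteins, 2 were called, ALB, serum albumin, at −1.55 ± 0.19 (adjusted P value 0.000144) and AFP, alpha-fetoprotein, at −0.98 ± 0.13 (adjusted P value 0.000293). No defining marker of these types was undetected in either supplier's arrays. Of the 16 tested intestinal epithelial markers, none was called and the median was 0.09. Of 4 fibroblast genes none was called, and of 5 squamous genes SPRR3 was called lower. Supplier, the sequence of the oligonucleotides and any difference in handling between these arrays cannot be told apart. The array most correlated with each array was of the same supplier in 12 of 12 cases, and of the same group in 8.

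Genes whose level followed each member most closely over the 12 arrays were taken by Pearson r among 9202 other genes, by the brightest probe of each. These values share the arrays and their scaling, and are given as a description. DPP4 was followed by SPTSSA (r = 0.959), FAR2 (0.942), H2AC18 (0.941) and CYP2J2 (0.94). CDX2 was followed by XPC (0.978), SMARCC2 (0.975), CBL (0.969) and CTBP1 (0.96), and APOA1 by NFE2 (0.976), PEX16 (0.967), TRAPPC3 (0.966) and RNF34 (0.966). A1CF was followed by DSCC1 (0.954), ISCA2 (0.931), UQCC1 (0.924) and NPL (0.914). APOB was followed by IFI35 (0.901), GNG2 (0.834), RCOR2 (0.827) and ARFIP1 (0.825). For A1CF and APOB part of the values lay at the detection limit. No member was among the 4 nearest genes of another member.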

How the data were processed

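RNA of 12 samples was hybridized to Illumina HT12 bead chips. The authors exported scans with BeadStudio and deposited 2 tables. One holds a mean intensity per probe and array, deposited without normalization, with a detection P value (p-value) beside each, as deposited by the authors. The other holds log2 values that the authors transformed and normalized (variance stabilizing normalization in the methods, lumi in the labels with its version not given in the sources used here). No column of values was left unused (0).

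Here the intensities were corrected and quantile normalized as in neqc of limma 3.58.1, run under R 4.3.3 together with statmod 1.5.0. The offset was 16, and the smallest step of the detection P values gave 770 negative controls. Tests used lmFit, then eBayes with a trend. The methods' rank product test was not run, because its null resamples probes. Probe names came from the platform annotation, which names 15543 of the 21105 probes in the authors' table, 15540 with 1 symbol, 3 with several, and leaves 5562 unnamed. The number of arrays, 3 per group, limits the precision. The fit was checked on simulated data. The alternatives were other background, scaling and detection settings, a replicate block, array weights, other controls, no fold minimum and each array left out.

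The members, lists and rules were chosen with earlier results of these data known. The rule for names took all member probes, up to 4 called and the 3 brightest tested genes of each list, the defining markers, and the 4 genes most correlated with each member; part of these is printed.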

Additional observations from a re-analysis of the deposited data

Results flagged for a closer look

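The DPP4 effects of the 2 siRNAs differed in sign, and the test of their difference drew attention at an unadjusted P value of 0.00683. The log2 difference was 0.885 (SE 0.282), from 0.55 with siRNA 1 and −0.33 with siRNA 2, each against the control of its own supplier. The limma adjusted P value over 14804 probes was 0.306, so that it failed the correction, and it ranged from 0.0782 to 0.722 with each array left out in turn. DPP4 was higher on 3 of 3 ZNF658 siRNA 1 arrays than on every control siRNA 1 array. With siRNA 2, 2 of 3 arrays were below every control siRNA 2 array, and replicate 3 (6.99) was above the lowest control (6.89).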

How the results depend on the processing

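DPP4 was called between suppliers in every alternative fitted over both pairs of groups, with log2 differences from −1.132 to −1.002 and adjusted P values from 0.000141 to 0.00145 with each array left out. With the replicate number as a block its value was −1.068 (adjusted P value 0.00113), 1 member and 539 probes were called, and no member's call changed. Replicate numbers did not pair the arrays: residual correlations ran from −0.59 to 0.40 (mean −0.03). The 681 probes called between suppliers ranged from 427 to 927 with 1 array left out (430 without ZNF658 siRNA 1 replicate 1, 433 without control siRNA 1 replicate 2, 427 without ZNF658 siRNA 2 replicate 1) and became 2044 with array quality weights. Chosen after seeing the data, the 6 ZNF658 siRNA arrays alone gave 285, and the 6 control arrays gave 300, with 0 members called and DPP4 at −0.626. With array weights 1 member, DPP4, was called for siRNA 1 (0.62) and 1 for the difference between the effects (1.075). Between the controls 2 were called, DPP4 (−0.518) and A1CF (0.828, adjusted P value 0.0105), and 3 in the 4-group test, DPP4, APOB and A1CF. Against control siRNA 2, siRNA 1 called 1 member, DPP4 (1.176, adjusted P value 0.00634). Without replicate 3 of both Dharmacon groups the difference between the effects called 1 member, DPP4 (1.102, adjusted P value 0.0235). The causes were not tested.

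Of 227 values of single members under alternatives other than leaving out 1 array, 208 kept direction and side of the threshold, 13 turned sign, 5 became called and 1 lost its call. None of those that turned sign was called. Part of the 208 could not change direction. Other detection filters, the replicate block, no fold minimum and fits of the compared groups alone repeat the main log2 value, so that only the call could differ. Against control siRNA 2, the siRNA 2 effects were the main ones themselves. The count of 208 is therefore not a measure of stability. With array weights CDX2 turned for siRNA 2 (0.146) and between suppliers (−0.181). With 6 pooled controls APOA1 (0.026) and A1CF (−0.004) turned for siRNA 1 and CDX2 for siRNA 2 (0.032). Against control siRNA 2, APOA1 (0.242), A1CF (−0.275) and CDX2 (−0.039) turned for siRNA 1. Without replicate 3 of both Dharmacon groups, CDX2 turned for siRNA 2 (0.455) and between suppliers (−0.054), and the mean DPP4 effect became −0.001. The siRNA 2 effects of APOA1 (−0.525), APOB (−1.1), A1CF (−0.77) and DPP4 (−0.551) grew there, and none was called. In the ZNF658 siRNA arrays alone the supplier differences of A1CF (−0.032) and CDX2 (−0.073) turned. With 1 array left out, the siRNA 2 effect ranged from −0.312 to 0.179 for APOA1 and from −0.428 to 0.333 for CDX2, whose supplier difference ranged from −0.115 to 0.265. APOB and A1CF, near the background, limit what these arrays show of them.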
